A study of Mus musculus with 8 samples.

Results

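Amino acid supply and one-carbon genes are described here as a set of 38 genes: 9 amino acid transporters, 8 enzymes of serine synthesis and folate one-carbon metabolism, the transcription factor gene *Atf4* with 6 genes known as its targets or partners, 11 cytosolic aminoacyl-tRNA synthetases, the transaminases *Gpt2* and *Got1*, and ornithine decarboxylase *Odc1*. They were chosen by gene symbol among the 23284 genes of the data, with earlier results of these data known, and all 38 were found. RNA sequencing covered 4 groups of cells, naïve CD4 T cells and the effector subsets Th1, Th2 and Th17, with 2 libraries per group. All cells came from DO11.10 Tg mice, whose T cell receptor recognizes an OVA peptide. The naïve cells were sorted from spleen as CD44low CD62Lhi. For the effector groups, naïve cells were cultured for 6 days with the peptide and irradiated splenocytes from which T cells had been removed. The Th1 condition contained IL-2 (30 U/ml), IL-12 (100 U/ml) and anti-IL-4 Ab (1 μg/ml). The Th2 condition contained IL-2 (30 U/ml), IL-4 (100 U/ml) and anti-IFNγ Ab (10 μg/ml). The Th17 condition contained IL-6, IL-1β and IL-23 (10 ng/ml each) and both antibodies (10 μg/ml each), without IL-2 being named. An effector group therefore differed from naïve cells in stimulation, cytokines and time in culture together. No source used here says whether the libraries of a group came from separate mice or cultures, so the p-values measure the spread between these samples, which may be technical.

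A T cell that leaves the resting state needs amino acids for protein and nucleotide synthesis. Transporters such as the heterodimer of Slc7a5 and Slc3a2 bring in leucine and other large neutral amino acids, and the serine pathway makes serine from a glycolytic intermediate. Serine then gives its one-carbon unit to folate, in mitochondria through Shmt2, Mthfd2 and Mthfd1l and in the cytosol through Shmt1 and Mthfd1, for purine and thymidylate synthesis. When uncharged tRNA accumulates or other stress is sensed, translation of *Atf4* mRNA increases. The ATF4 protein, with C/EBP partners, binds composite C/EBP-ATF elements of amino acid biosynthesis, transport and tRNA charging genes. *Atf4* is thus regulated largely at translation, and its mRNA level is a poor measure of its activity.

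Levels are given as FPKM, fragment numbers corrected for exon length and sequencing depth. Differences are on the log2(FPKM + 1) scale, with standard errors (SE), and adjusted p-values are from limma with Benjamini-Hochberg adjustment over the 11198 genes whose FPKM averaged 1 or more. This scale understates changes of weakly expressed genes. Of the 38 members 36 were tested, and *Chac1* and *Slc1a4* fell under the limit. The lineage check gave the labelled subsets: *Tbx21* reached 45.1 and 50.7 FPKM in the Th1 libraries and at most 1.66 elsewhere, *Gata3* reached 127 and 133 in Th2, and *Il17a* 347 and 335 in Th17. Not every lineage marker was confined to its subset. The 3 listed Th1 markers summed to 897.9 to 1040 FPKM in Th1, 112.3 to 132.5 in Th17 and 30.18 to 37.94 in Th2. The implied depth, estimated from the confidence intervals in the data, was 14463466 to 21058286 fragments per library, and the naïve libraries were the shallowest. Among markers of other cells that a culture could hold, summed FPKM of the 5 B cell markers was 6.59 to 8.59 in naïve, 2.32 to 3.13 in Th1, 6.93 to 9.72 in Th2 and 11.1 to 12.1 in Th17 libraries. The 4 listed monocyte and macrophage markers summed to 11.3 to 11.9, 7.92 to 8.65, 14.9 to 23.2 and 16.6 in the same order. The 5 dendritic cell markers summed to 0.728 to 0.815, 1.22 to 1.36, 2.72 to 2.82 and 3.88 to 3.90. This sum was higher in every effector group than in naïve cells. The 1 of these 5 markers that was tested was lower than naïve in Th1 (difference -0.51) and higher in Th2 (1.02) and Th17 (0.7). The 4 CD8 T and NK cell markers, nearly all *Cd8b1*, summed to 54.9 and 93.6 in the naïve libraries and to 9.05 to 13.2 in the effector libraries. Of the neutrophil markers *Mpo* and *Elane*, the effector libraries numbered 1 held 2.46 to 4.89 and 2.59 to 3.71 FPKM, and those numbered 2 at most 0.106 and 0. The part of such cells in the results was not tested. In bulk RNA, fewer cells of a type and less RNA per cell cannot be told apart.

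Most members were higher in effector cells than in naïve cells. In Th1 cells 26 of the 36 tested members were higher and 1 was lower, where 67.3% of all genes tested differed, 33.8% higher and 33.5% lower. In Th2 cells 22 were higher and 2 lower, where 70.5% of all genes differed, 31.8% higher and 38.7% lower. In Th17 cells 22 were higher and 1 lower, where 67.3% of all genes differed, 37.5% higher and 29.8% lower. These comparisons share the naïve libraries. The tested members had median differences of 0.49 (Th1), 0.42 (Th2) and 0.48 (Th17), and all genes tested had medians of -0.014, -0.11 and 0.077. The members were thus called about as often as genes at large, and their calls were mainly in the upward direction. Higher in all 3 subsets were 18 members (50%, against 24.8% of all genes tested), and lower in all 3 was *Slc38a2* alone (against 23.8% of all genes). When each library was omitted in turn, 11 of the 18 passed in all 3 subsets every time, and *Slc7a5*, *Slc38a1*, *Sars*, *Mars*, *Iars*, *Tars* and *Eprs* did not. *Slc7a1*, *Psph*, *Atf4*, *Wars* and *Lars* passed in none of the 3. Of all 38 members, 22 had all 6 effector libraries above both naïve libraries, 1 had them all below, and 15 overlapped. Among the 36 tested members 20 lay above and 1 below, against 30.5% and 31.1% of all genes tested. Without the 3 effector libraries numbered 1, which leaves 1 library per subset, fewer members were called higher, and fewer genes at large were called.

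**Figure D1:**
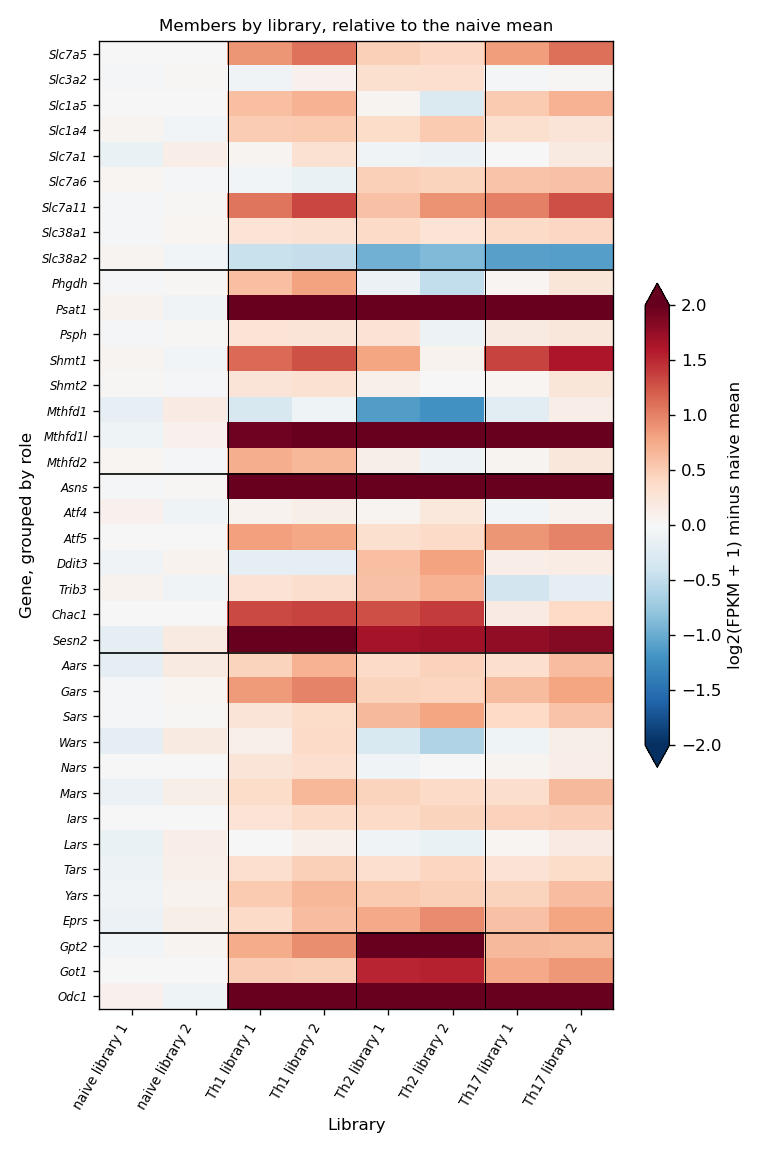
Heat map of the 38 members (rows, grouped by role) in the 8 libraries (columns), coloured by log2(FPKM + 1) minus the naïve mean of the gene, with colours saturating at 2 and -2. *Psat1*, *Mthfd1l*, *Asns* and *Odc1* are dark red in all 6 effector libraries, *Slc38a2* is blue in all 6, and *Atf4* stays near white.

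*Asns*, *Sesn2* and *Atf5* were higher in every subset, whereas *Atf4* itself did not pass in any. *Asns* encodes asparagine synthetase, a classical ATF4 target, and lies at chr6:7675171-7693182 (mm10). Its level was 0.101 and 0.127 FPKM (naïve), 8.19 and 7.96 (Th1), 13.2 and 11.6 (Th2), and 8.58 and 9.40 (Th17). Only 4 and 5 fragments were implied in the naïve libraries, so no fold is given, and all effector libraries lay far above. The difference from naïve cells was 3.03 ± 0.10 (adjusted p = 6.21e-07) in Th1, 3.58 ± 0.10 (adjusted p = 3.01e-07) in Th2 and 3.16 ± 0.10 (adjusted p = 4.69e-07) in Th17. *Sesn2* encodes Sestrin 2, a stress-induced leucine sensor that restrains mTORC1. It stood at 1.44 and 2.11 FPKM (naïve), 12.1 and 13.8 (Th1), 7.73 and 7.94 (Th2), and 8.40 and 8.82 (Th17). Its Th1, Th2 and Th17 means were 7.27-fold, 4.41-fold and 4.84-fold the naïve mean, and the differences were 2.33 ± 0.13 (adjusted p = 7.88e-06), 1.68 ± 0.13 (adjusted p = 3.28e-05) and 1.80 ± 0.13 (adjusted p = 2.43e-05). *Atf5*, a related bZIP factor that is also controlled at translation, was at 2.95 and 3.0 FPKM (naïve), 5.99 and 5.76 (Th1), 3.98 and 4.16 (Th2), and 6.32 and 6.88 (Th17). The Th1 and Th17 libraries were above the Th2 libraries, which were above the naïve ones, with differences of 0.79 ± 0.087 (adjusted p = 0.000194), 0.35 ± 0.087 (adjusted p = 0.00897) and 0.94 ± 0.087 (adjusted p = 7.83e-05). With quantile normalization the Th2 difference no longer passed. *Atf5* shares 82 exon bases with *Nup62* and with *Il4i1*. For *Atf4*, the gene at chr15:80255184-80257541, the values were 130.0 and 116 FPKM (naïve), 129 and 133 (Th1), 127 and 142 (Th2), and 118 and 128 (Th17). This was the highest level of any member in each group, and the groups overlapped, with differences of 0.10 ± 0.11 (adjusted p = 0.455), 0.13 ± 0.11 (adjusted p = 0.316) and 0.0037 ± 0.11 (adjusted p = 0.982).

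The remaining genes of this group differed by subset. *Ddit3* encodes CHOP, a C/EBP family factor of the stress response. It was at 24.7 and 27.6 FPKM (naïve), 22.6 and 22.9 (Th1), 40.2 and 46.1 (Th2), and 28.7 and 28.9 (Th17). The Th2 libraries stood above all others (0.70 ± 0.10, adjusted p = 0.00069), and the Th17 libraries just above the naïve ones (0.14 ± 0.10, adjusted p = 0.267). Its exons overlap those of *Mars* by 68 bases, and reads there could count for either gene. *Trib3*, a pseudokinase that dampens ATF4 activity, stood at 4.14 and 3.71 FPKM (naïve), 5.0 and 5.30 (Th1), 6.42 and 6.96 (Th2), and 2.82 and 3.34 (Th17). It was higher than naïve in Th2 (0.64 ± 0.11, adjusted p = 0.00129) and Th1 (0.32 ± 0.11, adjusted p = 0.0303), and the Th17 libraries lay below both naïve libraries (-0.27 ± 0.11, adjusted p = 0.0553; adjusted p = 0.0457 when blocked by replicate number, and 0.03 and 0.00169 with median scaling and quantile normalization). The Th1 call was lost with either Th1 library or naïve library 2 left out (adjusted p up to 0.133) and with quantile normalization. *Chac1*, a glutathione-degrading enzyme and ATF4 target that was not tested, had 0.0320 and 0.0321 FPKM (naïve), 1.57 and 1.63 (Th1), 1.51 and 1.73 (Th2), and 0.159 and 0.364 (Th17), with 1 implied fragment in each naïve library. Its Th1 and Th2 libraries were well above the Th17 libraries, and both of these above the naïve ones.

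The promoters of the members were also described, since ATF4 is known to act through the C/EBP-ATF element. The core of this element, TGATGNAA, was searched on both strands (TTNCATCA on the other) in RefSeq promoters of GRCm38.p6 that run from 250 bases before to 50 bases after the transcription start. A promoter was in the table for 32 of the 38 members, and 11 of the 32 (34.4%) held a match, compared with 1304 of 32851 promoters in the table (3.97%). The match was in *Slc1a4*, *Slc7a11*, *Asns*, *Trib3*, *Chac1*, *Aars*, *Gars*, *Iars*, *Tars*, *Yars* and *Got1*. Promoters of *Slc7a5*, *Slc1a5*, *Slc38a1*, *Wars*, *Nars* and *Lars* were not in the table. The E-box CACGTG, which reads the same on both strands and overlapped no match of the core, was in 3 of the 32 (9.38%; *Aars*, *Iars* and *Tars*), against 7.15% of all promoters. In both searches the members were counted by gene and the whole table by promoter. Many of these genes have long been known as ATF4 targets, so the presence of the letters is not independent of how such a set is chosen. Stretches of 120 bases that hold the match are shown for 5 members of different roles: *Asns*, the untested *Chac1*, the transporter *Slc7a11* with 2 matches in opposite orientation, the transaminase *Got1* and the synthetase *Aars*. Each is written 5′ to 3′ on the strand of the gene, with the match in capitals.
Asns (chr6:7693210-7693329, minus strand): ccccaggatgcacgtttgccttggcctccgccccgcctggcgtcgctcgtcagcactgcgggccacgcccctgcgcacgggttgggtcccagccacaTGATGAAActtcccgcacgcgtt
Chac1 (chr2:119350992-119351111, plus strand): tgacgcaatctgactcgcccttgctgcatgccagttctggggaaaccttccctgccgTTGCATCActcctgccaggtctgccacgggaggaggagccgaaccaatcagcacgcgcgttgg
Slc7a11 (chr3:50443614-50443733, minus strand): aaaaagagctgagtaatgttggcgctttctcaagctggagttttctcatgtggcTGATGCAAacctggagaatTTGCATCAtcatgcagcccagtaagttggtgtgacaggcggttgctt
Got1 (chr19:43524606-43524725, minus strand): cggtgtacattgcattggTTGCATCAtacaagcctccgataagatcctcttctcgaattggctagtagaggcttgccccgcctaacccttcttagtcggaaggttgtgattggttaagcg
Aars (chr8:111033682-111033801, plus strand): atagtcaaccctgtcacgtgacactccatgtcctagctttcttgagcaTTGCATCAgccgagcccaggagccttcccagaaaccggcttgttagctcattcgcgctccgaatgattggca
In *Asns* the match begins 23 bases before the start of transcription, in *Got1* 102 and in *Chac1* 193. Of the 9 tested members with a match, 7 were higher in all 3 subsets and the other 2, *Trib3* and *Aars*, were called in some. Of the 21 without a match, 9 were higher in all 3, 1 was lower in all 3, 8 were called in some and 3 in none. Over all genes tested, 24.8% were higher in all 3 and 23.8% lower in all 3. With each library omitted in turn, *Iars* and *Tars* of the 7 and *Sars*, *Mars* and *Eprs* of the 9 did not pass every time. *Psat1*, *Mthfd1l* and *Odc1*, which rose strongly, had no match in this window. A match is a description of the letters and not a binding site, and its relation to the levels was not tested.

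**Figure D2:**
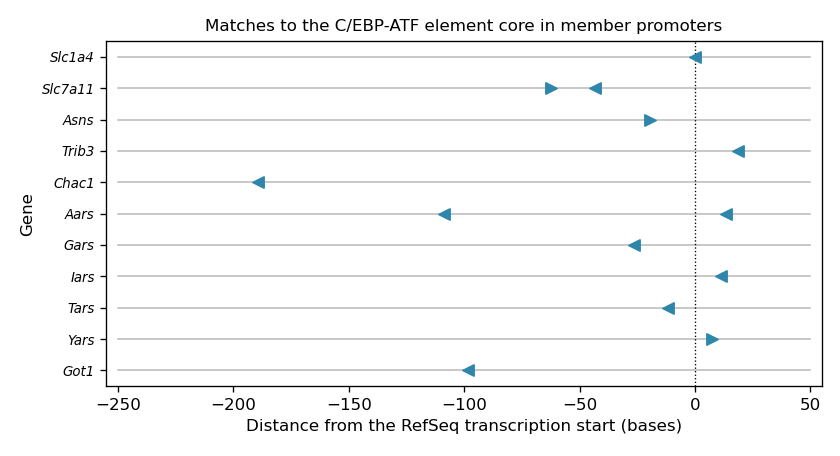
Position of each match to the C/EBP-ATF element core (triangles, pointing right for the strand of the gene and left for the other strand) in the 11 member promoters that hold one, by distance in bases from the RefSeq transcription start (dotted line). *Slc7a11* and *Aars* hold 2 matches each, and all matches except that of *Chac1* lie within 120 bases of the start.

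Among the transporters, 4 of the 8 tested rose in Th1 (50%, against 33.8% of all genes tested) and 5 each in Th2 and Th17 (62.5%, against 31.8% and 37.5%), and *Slc38a2* fell in all 3. *Slc7a11* encodes the cystine-glutamate exchanger xCT, which supplies cysteine for glutathione. It was at 1.84 and 1.94 FPKM (naïve), 5.09 and 6.26 (Th1), 3.33 and 4.37 (Th2), and 4.82 and 6.08 (Th17), all effector libraries being above naïve. The differences were 1.20 ± 0.16 (adjusted p = 0.000457) in Th1, 0.74 ± 0.16 (adjusted p = 0.00452) in Th2 and 1.15 ± 0.16 (adjusted p = 0.000545) in Th17. *Slc7a5*, the catalytic chain of the large neutral amino acid transporter LAT1, had 10.9 and 11.1 FPKM (naïve), 21.0 and 24.4 (Th1), 15.8 and 15.0 (Th2), and 20.3 and 24.8 (Th17). The Th1 and Th17 means were 2.07-fold and 2.05-fold the naïve mean and the Th2 mean 1.40-fold, with differences of 0.98 ± 0.12 (adjusted p = 0.000354), 0.97 ± 0.12 (adjusted p = 0.000356) and 0.45 ± 0.12 (adjusted p = 0.0129). The Th2 call was lost without naïve library 1 or without Th2 library 1 (adjusted p up to 0.0627). Its partner chain *Slc3a2* (CD98) had another pattern, at 31.8 and 33.1 FPKM (naïve), 30.9 and 34.4 (Th1), 40.8 and 41.2 (Th2), and 31.4 and 33.0 (Th17). Only in Th2 did both libraries lie above both naïve ones (0.33 ± 0.091, adjusted p = 0.0145), a call lost without naïve library 1 or Th2 library 2 (adjusted p up to 0.0613).

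*Slc1a5* (ASCT2), a neutral amino acid and glutamine transporter, stood at 27.6 and 27.9 FPKM (naïve), 42.4 and 45.8 (Th1), 29.0 and 22.4 (Th2), and 40.3 and 45.3 (Th17). The Th1 and Th17 libraries were above naïve (0.65 ± 0.13, adjusted p = 0.00438 and 0.61 ± 0.13, adjusted p = 0.00589), and the Th2 libraries fell on either side of the naïve ones (-0.12 ± 0.13, adjusted p = 0.459). *Slc7a6* (y+LAT2), a partner of CD98 for cationic and neutral amino acids, had 14.4 and 13.7 FPKM (naïve), 13.5 and 12.8 (Th1), 19.9 and 19.4 (Th2), and 21.3 and 21.6 (Th17). It was higher in Th2 (0.46 ± 0.08, adjusted p = 0.00182) and Th17 (0.58 ± 0.08, adjusted p = 0.000605) and not in Th1 (-0.091 ± 0.08, adjusted p = 0.349). The glutamine transporter *Slc38a1* (SNAT1) was at 12.7 and 13.4 FPKM (naïve), 16.0 and 16.4 (Th1), 17.3 and 16.0 (Th2), and 17.3 and 17.7 (Th17). It rose by a small amount in each subset (0.29 ± 0.084, adjusted p = 0.0176, 0.33 ± 0.084, adjusted p = 0.0102 and 0.40 ± 0.084, adjusted p = 0.00457 in Th1, Th2 and Th17), but the Th1 call was lost without naïve library 1 or either Th1 library (adjusted p up to 0.0836) and the Th2 call without naïve library 1 (adjusted p = 0.0504).

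The other system A carrier, *Slc38a2* (SNAT2; chr15:96687392-96699698), went the opposite way. Its level was 55.4 and 51.7 FPKM (naïve), 38.9 and 38.0 (Th1), 26.9 and 28.6 (Th2), and 24.6 and 24.4 (Th17). Every effector library was below both naïve libraries, and the Th1 libraries were above those of the other two subsets. The differences were -0.47 ± 0.085 (adjusted p = 0.00237) in Th1, -0.92 ± 0.085 (adjusted p = 6.85e-05) in Th2 and -1.10 ± 0.085 (adjusted p = 3.11e-05) in Th17. The arginine and lysine transporter *Slc7a1* (CAT-1) overlapped between naïve and effector libraries, at 8.82 and 10.8 FPKM (naïve), 10.1 and 12.3 (Th1), 9.26 and 8.88 (Th2), and 9.74 and 11.2 (Th17). The untested *Slc1a4* (ASCT1), a serine and alanine carrier, had 0.188 and 0.0943 FPKM (naïve), 0.620 and 0.634 (Th1), 0.475 and 0.642 (Th2), and 0.416 and 0.367 (Th17). Both naïve libraries were below all effector libraries at a level where only 8 and 16 fragments were implied.

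In the serine and one-carbon group, *Psat1* and *Mthfd1l* rose in all 3 subsets and the other 6 genes in some or none. In all, 6 of the 8 passed as higher in Th1 (75%, against 33.8% of all genes tested), 2 in Th2 (25%, against 31.8%) and 3 in Th17 (37.5%, as over all genes), and *Mthfd1* was lower in Th2. The shares in Th2 and Th17 were thus not above the background. *Psat1* (chr19:15905123-15925059) encodes phosphoserine aminotransferase, the middle enzyme of serine synthesis. It was at 8.96 and 8.12 FPKM (naïve), 45.9 and 42.2 (Th1), 64.0 and 60.3 (Th2), and 40.0 and 42.3 (Th17). All effector libraries were far above naïve and the Th2 libraries above the rest, so that the means were 5.16-fold, 7.28-fold and 4.82-fold the naïve mean in Th1, Th2 and Th17. The differences were 2.24 ± 0.10 (adjusted p = 1.99e-06), 2.73 ± 0.10 (adjusted p = 7.11e-07) and 2.14 ± 0.10 (adjusted p = 2.19e-06). *Mthfd1l* (chr10:3973075-4167081), the mitochondrial enzyme that releases formate, was at 9.82 and 11.3 FPKM (naïve), 43.2 and 53.0 (Th1), 67.7 and 72.6 (Th2), and 59.3 and 67.0 (Th17). No effector library came within reach of the naïve ones, and the differences were 2.08 ± 0.13 (adjusted p = 1.33e-05), 2.62 ± 0.13 (adjusted p = 3.64e-06) and 2.47 ± 0.13 (adjusted p = 5.12e-06).

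The enzymes on either side of Psat1 behaved differently. *Phgdh*, which catalyses the first step of serine synthesis, had 12.3 and 12.7 FPKM (naïve), 19.6 and 22.7 (Th1), 11.4 and 8.61 (Th2), and 12.9 and 15.0 (Th17). The Th1 libraries were the highest (0.71 ± 0.15, adjusted p = 0.00449), and neither the Th17 libraries, just above naïve (0.14 ± 0.15, adjusted p = 0.418), nor the Th2 libraries, below naïve (-0.31 ± 0.15, adjusted p = 0.103), passed. The values of *Phgdh* are uncertain, because 47.8% of the 50-base words of its transcripts also occur in other genes, mainly *Gm7901*. *Psph*, the phosphatase of the last step, was at 14.9 and 15.4 FPKM (naïve), 18.5 and 18.2 (Th1), 18.7 and 14.0 (Th2), and 17.2 and 18.0 (Th17) and passed in no comparison. *Psph* shares 452 exon bases with *Cct6a*.

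*Mthfd2*, the mitochondrial methylene-tetrahydrofolate dehydrogenase, had 22.8 and 21.4 FPKM (naïve), 37.4 and 35.6 (Th1), 24.1 and 20.5 (Th2), and 22.9 and 26.1 (Th17). It was higher in Th1 alone (0.70 ± 0.11, adjusted p = 0.00134), and in Th2 and Th17 the differences were 0.0063 ± 0.11 (adjusted p = 0.968) and 0.14 ± 0.11 (adjusted p = 0.297). *Shmt2*, the mitochondrial serine hydroxymethyltransferase, was at 32.0 and 30.8 FPKM (naïve), 37.5 and 39.1 (Th1), 33.8 and 31.6 (Th2), and 32.4 and 37.4 (Th17). Its small difference in Th1 (0.28 ± 0.10, adjusted p = 0.0416) was lost with any of 6 libraries left out, namely all but the Th17 pair (adjusted p up to 0.156), and with quantile normalization. The cytosolic isozyme *Shmt1* had 3.61 and 3.23 FPKM (naïve), 8.66 and 9.65 (Th1), 6.63 and 3.62 (Th2), and 10.3 and 12.6 (Th17). It rose in Th1 (1.20 ± 0.23, adjusted p = 0.00294) and Th17 (1.49 ± 0.23, adjusted p = 0.000991), while the Th2 libraries were far apart, with library 2 at the naïve level (0.43 ± 0.23, adjusted p = 0.134). *Mthfd1*, the trifunctional cytosolic enzyme, stood at 11.5 and 14.8 FPKM (naïve), 10.3 and 12.3 (Th1), 5.52 and 5.11 (Th2), and 11.2 and 14.4 (Th17). The Th2 libraries were below all others (-1.16 ± 0.16, adjusted p = 0.000623), and the Th1 and Th17 libraries overlapped the naïve ones.

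**Figure D3:**
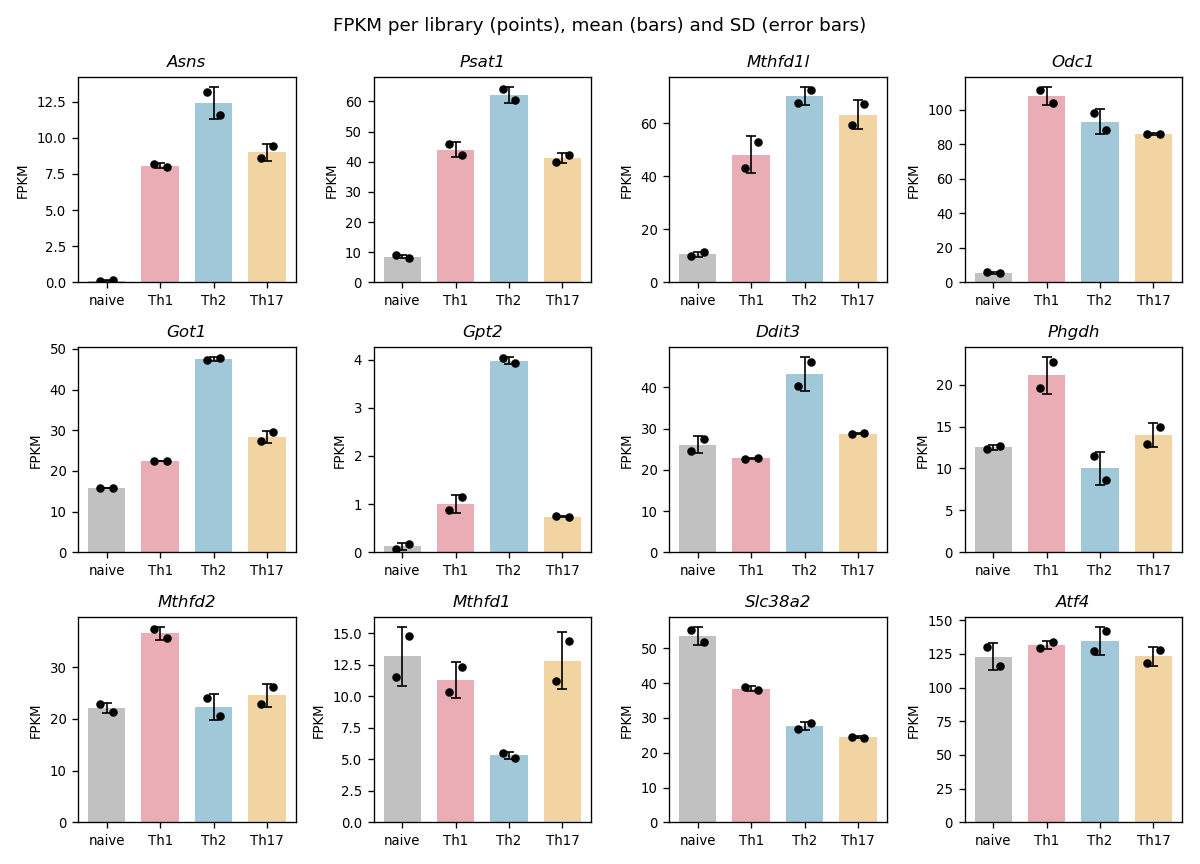
FPKM of 12 members in the 4 groups, with points for the libraries, bars for the mean and error bars for the SD (n = 2 per group); each panel has its own axis from 0. *Asns*, *Psat1*, *Mthfd1l* and *Odc1* are low in naïve cells and high in every subset, *Got1*, *Gpt2* and *Ddit3* peak in Th2, *Phgdh* and *Mthfd2* peak in Th1, *Mthfd1* is lowest in Th2, *Slc38a2* is highest in naïve cells and *Atf4* overlaps between groups.

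The 11 cytosolic aminoacyl-tRNA synthetases, which charge tRNA with its amino acid, mostly had modest increases. Of the 11, 9 passed as higher in Th1 (81.8%, against 33.8% of all genes tested), 7 in Th2 (63.6%, against 31.8%) and 8 in Th17 (72.7%, against 37.5%), and none was lower. *Gars*, *Sars*, *Mars*, *Iars*, *Tars*, *Yars* and *Eprs* passed in all 3, but with quantile normalization the Th1 calls of *Sars* and *Nars* were lost, leaving 7 in Th1. *Gars*, for glycine, was at 32.1 and 34.1 FPKM (naïve), 60.6 and 67.0 (Th1), 45.4 and 44.7 (Th2), and 52.0 and 58.1 (Th17). All effector libraries were above naïve, the Th1 libraries most (0.93 ± 0.10, adjusted p = 0.000184 in Th1, 0.43 ± 0.10, adjusted p = 0.00673 in Th2 and 0.71 ± 0.10, adjusted p = 0.000637 in Th17). *Eprs*, which charges both glutamate and proline, had 19.1 and 22.7 FPKM (naïve), 27.3 and 32.5 (Th1), 36.0 and 41.0 (Th2), and 31.9 and 36.6 (Th17), and here the Th2 mean was the highest (0.50 ± 0.14, adjusted p = 0.017, 0.86 ± 0.14, adjusted p = 0.00131 and 0.69 ± 0.14, adjusted p = 0.00398). *Sars*, for serine, was likewise highest in Th2, at 35.0 and 36.4 FPKM (naïve), 42.8 and 46.3 (Th1), 56.8 and 62.2 (Th2), and 47.2 and 53.2 (Th17). Its differences were 0.31 ± 0.10 (adjusted p = 0.0313), 0.72 ± 0.10 (adjusted p = 0.000646) and 0.48 ± 0.10 (adjusted p = 0.00506). *Yars*, for tyrosine, was at 11.2 and 12.4 FPKM (naïve), 17.3 and 19.4 (Th1), 17.5 and 16.7 (Th2), and 16.4 and 18.7 (Th17), with overlapping subsets, and passed in each (0.59 ± 0.11, adjusted p = 0.00223, 0.50 ± 0.11, adjusted p = 0.00465 and 0.53 ± 0.11, adjusted p = 0.0037).

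*Iars*, *Tars* and *Mars*, for isoleucine, threonine and methionine, had differences of 0.33 to 0.52 in every subset. *Iars* ranged from 18.6 to 21.6 FPKM in the effector libraries against 15.1 and 15.2 in naïve, *Tars* from 26.3 to 30.0 against 19.8 and 22.8, and *Mars* from 22.5 to 28.1 against 15.9 and 19.1. For none of these genes did an effector library reach down to the naïve ones. *Aars*, for alanine, had 13.7 and 17.9 FPKM (naïve), 21.7 and 26.0 (Th1), 20.7 and 21.9 (Th2), and 20.0 and 24.6 (Th17), and 1326 of its exon bases are shared with *Exosc6*. It passed in Th1 (0.57 ± 0.16, adjusted p = 0.0175) and Th17 (0.48 ± 0.16, adjusted p = 0.0348), and in Th2 with the replicate block only (0.42 ± 0.16, adjusted p = 0.0524; 0.00506 with the block). *Nars*, for asparagine, passed in Th1 alone (0.29 ± 0.086, adjusted p = 0.0193). *Wars*, for tryptophan, had 20.6 and 26.8 FPKM (naïve), 25.3 and 30.9 (Th1), 18.8 and 15.2 (Th2), and 22.2 and 25.7 (Th17), and its Th2 libraries lay below both naïve libraries (-0.46 ± 0.17, adjusted p = 0.0503; 0.0389 with the block). *Lars*, for leucine, ranged from 15.7 to 19.6 FPKM over all 8 libraries.

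Many calls on the synthetases were lost when a single library was omitted, with the sign of the difference kept. When each library was omitted in turn, 2 of the 9 calls in Th1 passed every time (*Gars* and *Yars*), 5 of the 7 in Th2 and 5 of the 8 in Th17. In Th1 the calls of *Aars*, *Sars*, *Nars*, *Mars*, *Iars*, *Tars* and *Eprs* were lost without Th1 library 2, and all of these except *Iars* also without naïve library 1 (highest adjusted p 0.147, for *Sars*). *Sars* and *Nars* were also lost without naïve library 2, and *Sars* without Th1 library 1. *Mars* and *Tars* were lost in Th2 and Th17 without naïve library 1 (highest adjusted p 0.197, for *Mars* in Th2). Both were also lost in Th2 without Th2 library 2 and in Th17 without Th17 library 2, *Mars* in Th2 without Th2 library 1, and *Tars* in Th17 without Th17 library 1. *Aars* in Th17 was lost without naïve library 1, Th17 library 2 or either Th2 library (adjusted p up to 0.186). Library 2 was above library 1 for 10 of the 11 genes for naïve cells, 11 for Th1, 6 for Th2 and 11 for Th17, with median differences of 0.20, 0.15, 0.065 and 0.17.

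*Odc1*, *Got1* and *Gpt2* rose in all 3 subsets, although *Gpt2* fell in Th17 with quantile normalization. *Odc1* (chr12:17544873-17551502) encodes ornithine decarboxylase, the first step of polyamine synthesis. It was at 5.89 and 5.13 FPKM (naïve), 112 and 104 (Th1), 98.3 and 88.1 (Th2), and 86.3 and 85.9 (Th17). Naïve and effector libraries were far apart, and the means were 19.6-fold, 16.9-fold and 15.6-fold the naïve mean. On the log2(FPKM + 1) scale its differences were the highest of any tested member in each subset (4.07 ± 0.10, adjusted p = 3.04e-07, 3.86 ± 0.10, adjusted p = 2.89e-07 and 3.74 ± 0.10, adjusted p = 3.18e-07). This ranking is not one of folds, because the scale understates changes of members with few naïve fragments, such as *Asns* and *Gpt2*. Of the 50-base words of *Odc1* 24.3% also occur in other genes, mainly *Gm7993*, so the counting could have split its reads. *Got1* (chr19:43499753-43524605), cytosolic aspartate aminotransferase, stood at 15.8 and 15.8 FPKM (naïve), 22.5 and 22.4 (Th1), 47.2 and 47.8 (Th2), and 27.3 and 29.5 (Th17). The groups did not overlap, in the order naïve, Th1, Th17 and Th2 (0.48 ± 0.082, adjusted p = 0.00162, 0.81 ± 0.082, adjusted p = 0.000117 and 1.53 ± 0.082, adjusted p = 4.64e-06).

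*Gpt2* (chr8:85492617-85527558), the mitochondrial alanine aminotransferase, had 0.0772 and 0.168 FPKM (naïve), 0.872 and 1.14 (Th1), 4.03 and 3.92 (Th2), and 0.749 and 0.733 (Th17). The Th2 libraries stood apart from all others, and 6 and 13 fragments were implied in the naïve libraries. The difference in Th2 was 2.15 ± 0.12 (adjusted p = 4.87e-06). In Th1 and Th17 it was 0.84 ± 0.12 (adjusted p = 0.000606) and 0.63 ± 0.12 (adjusted p = 0.00231), but with quantile normalization the Th1 difference was 0.05 (adjusted p = 0.713) and the Th17 difference reversed to -0.34 (adjusted p = 0.0347), so the direction in Th17 depends on the scaling. Quantile normalization moved the median of all genes tested to -0.13 in Th1, -0.13 in Th2 and -0.12 in Th17.

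**Figure D4:**
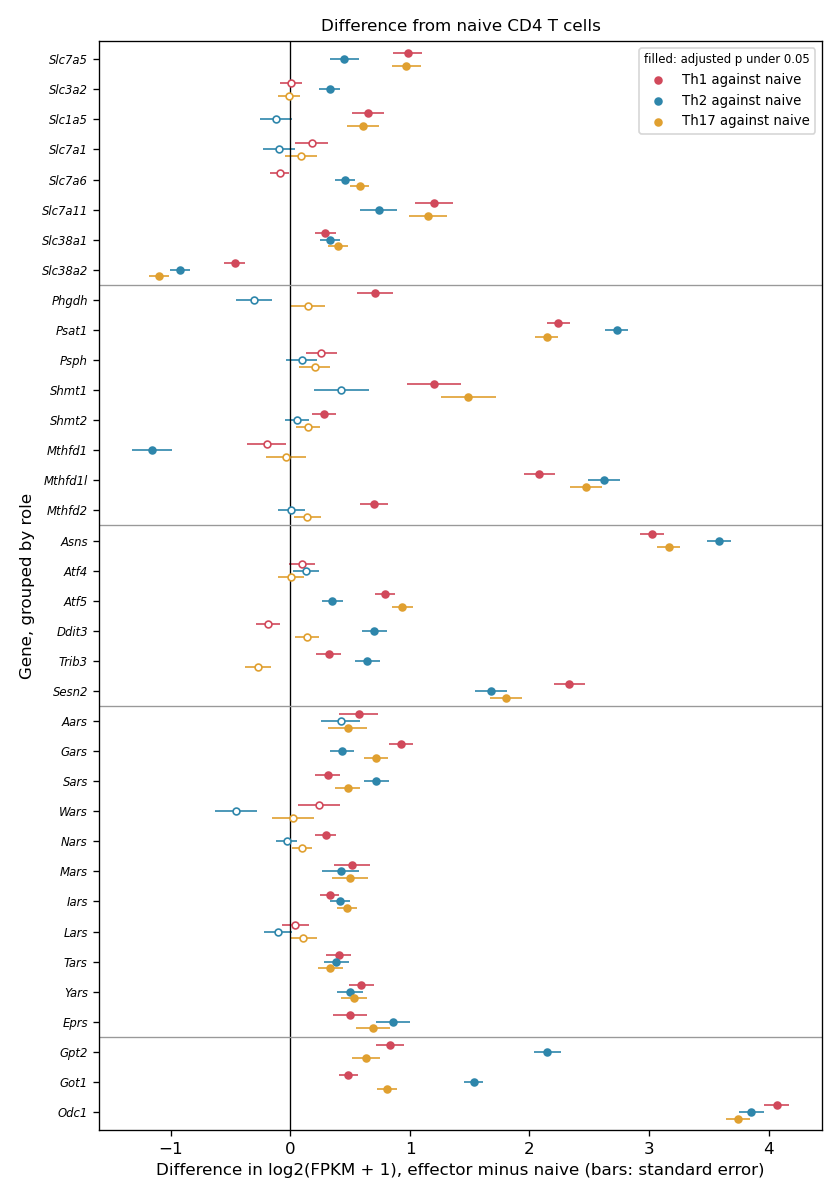
Difference from naïve cells in log2(FPKM + 1) for the 36 tested members, grouped by role, in Th1, Th2 and Th17 cells (points, with bars for the SE; filled where the adjusted p is under 0.05). *Odc1*, *Asns*, *Psat1* and *Mthfd1l* lie beyond 2 in every subset, *Slc38a2* lies below 0 in every subset, and every synthetase lies under 1.

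The effector subsets were also compared with each other. Between Th1 and Th2, 13 members were higher in Th1 and 10 higher in Th2, where 44.3% of all genes tested differed, 27.4% higher in Th1 and 16.9% higher in Th2. Between Th17 and Th2, 6 were higher in Th17 and 7 higher in Th2, where 43.6% of all genes differed, 31.7% higher in Th17 and 12.0% higher in Th2. Between Th1 and Th17, 5 were higher in Th1 and 2 higher in Th17, where 25.1% of all genes differed, 9.17% and 16.0%. In all, 23 members differed between some pair of subsets (63.9%), against 59.9% of all genes tested. Past the threshold against both other subsets, 7 members were highest in Th2 (*Slc3a2*, *Psat1*, *Asns*, *Ddit3*, *Trib3*, *Gpt2* and *Got1*; 8.94% of all genes), 4 in Th1 (*Slc38a2*, *Phgdh*, *Mthfd2* and *Sesn2*; 7.06% of all genes) and 0 in Th17 (8.18% of all genes). Lowest in Th2 were 6 members (*Slc7a5*, *Slc1a5*, *Phgdh*, *Shmt1*, *Mthfd1* and *Atf5*; 19.3% of all genes), lowest in Th1 were *Slc7a6* and *Got1* (7.50% of all genes), and lowest in Th17 was *Trib3* (2.19% of all genes). With the replicate block *Sars* was added to the members highest in Th2 (8, with 11.1% of all genes), *Mthfd1l* and *Ddit3* to those lowest in Th1 (4, with 9.87%) and *Gars*, *Wars* and *Slc7a11* to those lowest in Th2 (9, with 24.4%), and 25 members differed between some pair (70.8% of all genes).

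The transaminases were both highest in Th2. *Gpt2* was lower than in Th2 by -1.31 ± 0.12 (adjusted p = 0.000182) in Th1 and -1.52 ± 0.12 (adjusted p = 0.000159) in Th17. *Got1* differed by -1.05 ± 0.082 (adjusted p = 0.000107) and -0.72 ± 0.082 (adjusted p = 0.000793) in the same order, and by -0.33 ± 0.082 (adjusted p = 0.0277) between Th1 and Th17. Each Th2 library was above every other effector library for both genes. Between Th1 and Th17, the *Got1* call was lost with any library of either subset left out (adjusted p up to 0.139) and with median scaling.

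*Ddit3* and *Trib3* were also highest in Th2. For *Ddit3* the differences were -0.89 ± 0.10 (adjusted p = 0.000617) and -0.57 ± 0.10 (adjusted p = 0.00513) from Th2 in Th1 and Th17, and -0.33 ± 0.10 (adjusted p = 0.0578) between Th1 and Th17 (0.0246 with the replicate block). *Trib3* was -0.92 ± 0.11 (adjusted p = 0.000866) in Th17 and -0.32 ± 0.11 (adjusted p = 0.0449) in Th1 against Th2, and the latter call was lost with any of the 8 libraries left out (adjusted p up to 0.18). Between Th1 and Th17, *Trib3* differed by 0.59 ± 0.11 (adjusted p = 0.00728), a call lost without Th1 library 2 or Th17 library 1 (adjusted p up to 0.056). *Asns* was lower than in Th2 by -0.56 ± 0.10 (adjusted p = 0.00412) in Th1 and -0.42 ± 0.10 (adjusted p = 0.0136) in Th17, the second being lost without Th2 library 1 or Th17 library 1 (adjusted p up to 0.0779). *Psat1* was lower by -0.49 ± 0.10 (adjusted p = 0.0064) and -0.58 ± 0.10 (adjusted p = 0.00347). Hence some of the genes known as ATF4 targets were highest in Th2, while *Sesn2*, also of that group, was highest in Th1: 0.65 ± 0.13 (adjusted p = 0.00759) against Th2 and 0.53 ± 0.13 (adjusted p = 0.0272) against Th17. The first of these was lost without Th1 library 2 (adjusted p = 0.0566), and the second with any of the 6 effector libraries left out (adjusted p up to 0.151).

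Several folate and serine genes were lower in Th2 than in the other subsets. *Mthfd1* was higher by 0.96 ± 0.16 (adjusted p = 0.00373) in Th1 and 1.12 ± 0.16 (adjusted p = 0.00225) in Th17. *Shmt1* was higher by 0.77 ± 0.23 (adjusted p = 0.0314) and 1.06 ± 0.23 (adjusted p = 0.0101), where the Th1 call was lost with either Th1 library, Th2 library 2 or either Th17 library left out (adjusted p up to 0.14) and the Th17 call without Th17 library 2 (adjusted p = 0.0724). *Phgdh* was higher by 1.01 ± 0.15 (adjusted p = 0.00185) in Th1. In Th17 it was higher than in Th2 by 0.45 ± 0.15 (adjusted p = 0.0458), which 7 of the 8 libraries left out in turn took away (all but Th2 library 1; adjusted p up to 0.221), as did both scalings. *Phgdh* and *Mthfd2* were higher in Th1 than in Th17 by 0.56 ± 0.15 (adjusted p = 0.0322) and 0.56 ± 0.11 (adjusted p = 0.0127). The *Phgdh* call was lost with any naïve, Th1 or Th17 library left out (adjusted p up to 0.168), and that of *Mthfd2* with either Th1 library or Th17 library 1 left out (adjusted p up to 0.078). Against Th2, *Mthfd2* was higher in Th1 by 0.69 ± 0.11 (adjusted p = 0.00311). *Mthfd1l* went the other way and was lower in Th1 than in Th2 by -0.54 ± 0.13 (adjusted p = 0.0159), a call lost without Th1 library 1 or Th2 library 2 (adjusted p up to 0.0878), and than in Th17 by -0.39 ± 0.13 (adjusted p = 0.0752) (0.0111 with the replicate block).

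Among transporters and their regulators, *Slc1a5* was higher than in Th2 by 0.77 ± 0.13 (adjusted p = 0.00418) in Th1 and 0.72 ± 0.13 (adjusted p = 0.00581) in Th17, with no overlap of the libraries. *Slc7a5* was higher by 0.53 ± 0.12 (adjusted p = 0.0123) and 0.52 ± 0.12 (adjusted p = 0.014), and both calls were lost without Th2 library 2, the first also without Th1 library 2 and the second without Th17 library 2 (adjusted p up to 0.0816 and 0.0836). Its partner *Slc3a2* was lower than in Th2 by -0.32 ± 0.091 (adjusted p = 0.0271) in Th1, lost without Th1 library 1 or either Th2 library (adjusted p up to 0.142), and by -0.34 ± 0.091 (adjusted p = 0.0229) in Th17, lost without any Th2 or Th17 library (adjusted p up to 0.0952). *Slc7a6* was lower in Th1 than in Th2 (-0.55 ± 0.08, adjusted p = 0.00191) and Th17 (-0.67 ± 0.08, adjusted p = 0.0013). *Slc38a2* was higher in Th1 than in Th2 (0.46 ± 0.085, adjusted p = 0.00526) and Th17 (0.63 ± 0.085, adjusted p = 0.00219). *Atf5* was higher than in Th2 by 0.44 ± 0.087 (adjusted p = 0.00681) in Th1 and 0.58 ± 0.087 (adjusted p = 0.0024) in Th17.

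**Figure D5:**
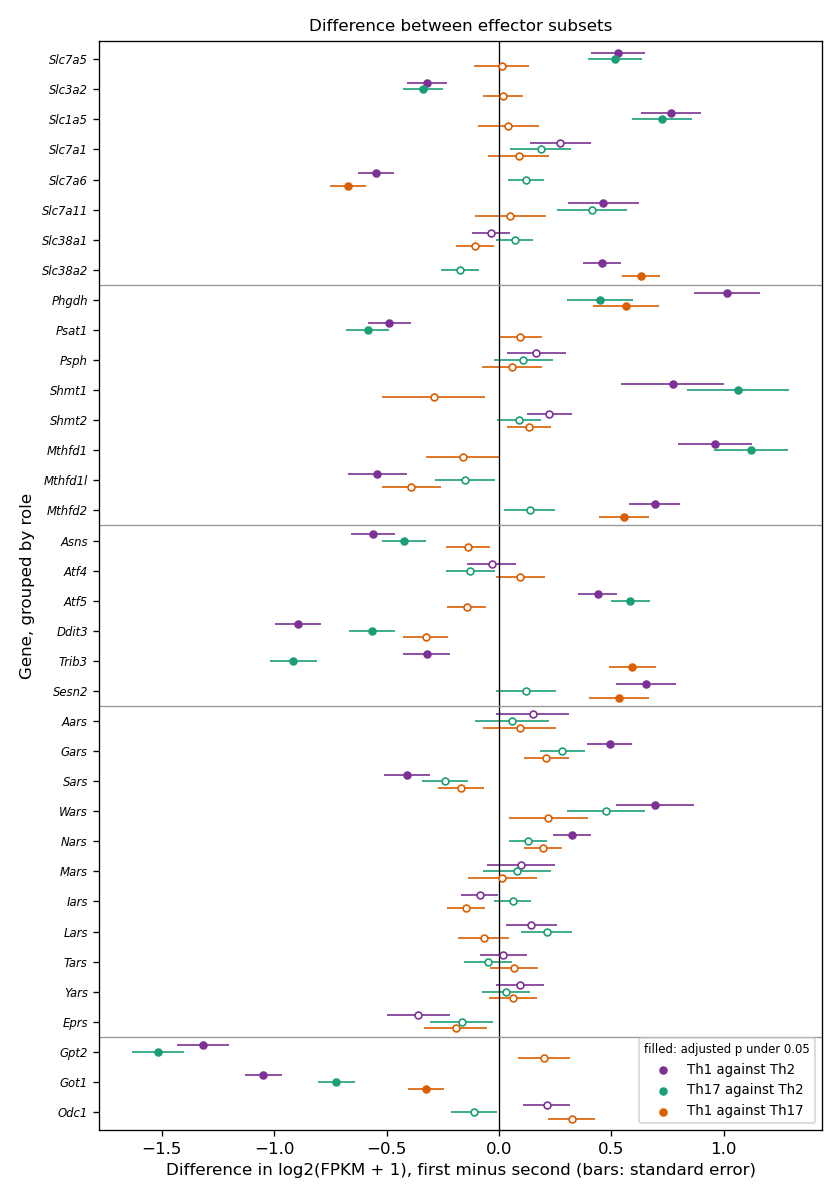
Difference in log2(FPKM + 1) between pairs of effector subsets for the 36 tested members (points, with bars for the SE; filled where the adjusted p is under 0.05). *Gpt2*, *Got1* and *Ddit3* lie left of 0 for Th1 and Th17 against Th2, and *Slc1a5*, *Shmt1* and *Mthfd1* lie right of 0 for both.

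Of the 11 synthetases, 3 were higher in Th1 than in Th2 (27.3%, against 27.4% of all genes tested). Only 1 was lower (9.09%, against 16.9%). In Th1 against Th2, *Gars* (0.49 ± 0.10, adjusted p = 0.00767), *Wars* (0.69 ± 0.17, adjusted p = 0.0173) and *Nars* (0.33 ± 0.086, adjusted p = 0.0213) were higher in Th1 and *Sars* (-0.41 ± 0.10, adjusted p = 0.0176) higher in Th2. None of these 4 calls survived the omission of every library in turn: all but that of *Sars* were lost without Th1 library 2, and those of *Sars*, *Wars* and *Nars* without Th2 library 2 (adjusted p up to 0.0544 for *Gars*, 0.109 for *Wars*, 0.116 for *Nars* and 0.094 for *Sars*). Without Th1 library 1 the calls of *Sars* and *Nars* were lost, as was that of *Nars* without Th2 library 1 and with quantile normalization. In the other 2 comparisons no synthetase passed, where 43.6% (Th17 against Th2) and 25.1% (Th1 against Th17) of all genes tested differed. The replicate block added *Eprs* in Th1 against Th2 (-0.36 ± 0.14, adjusted p = 0.0787; 0.00565 with the block) and *Gars* (0.0235), *Sars* (0.0279) and *Wars* (0.047, all adjusted p) in Th17 against Th2. It also added *Slc7a11* in Th17 against Th2 (0.41 ± 0.16, adjusted p = 0.0714; 0.0137 with the block) and *Odc1* in Th1 against Th17 (0.32 ± 0.10, adjusted p = 0.0629; 0.0202 with the block). *Slc7a11* in Th1 against Th2 (0.46 ± 0.16, adjusted p = 0.0491) passed in the full set but was lost when any library except Th2 library 2 was omitted (adjusted p up to 0.235), as well as with either scaling.

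Other genes of these pathways were counted from fixed lists, where 33.8%, 31.8% and 37.5% of all genes tested were higher and 33.5%, 38.7% and 29.8% lower in Th1, Th2 and Th17. Of 12 further cytosolic synthetases and their scaffold proteins, 7 were higher in Th1 (58.3%), 7 in Th2 (58.3%) and 9 in Th17 (75%), and 1 was lower, in Th2. The median difference over this list was 0.45, 0.42 and 0.65. *Vars*, for valine, was at 25.0 and 32.2 FPKM (naïve), 55.7 and 73.2 (Th1), 70.4 and 73.3 (Th2), and 47.3 and 61.6 (Th17), and *Qars*, for glutamine, at 40.1 and 43.5 FPKM (naïve), 85.1 and 110.4 (Th1), 69.2 and 83.0 (Th2), and 75.6 and 92.9 (Th17). *Dars*, for aspartate, and *Aimp2*, a scaffold of the multisynthetase complex, were also higher in all 3. Of 17 mitochondrial synthetases, which serve the organelle's own translation, 1, 3 and 2 were higher (5.88%, 17.6% and 11.8%) and 8, 7 and 4 lower (47.1%, 41.2% and 23.5%) in Th1, Th2 and Th17, with medians of -0.37, -0.29 and -0.14. With median scaling 3 were higher in Th1, and with quantile normalization 8 were lower in Th17. *Ears2* was at 8.35 and 8.98 FPKM (naïve), 3.78 and 3.75 (Th1), 2.55 and 2.49 (Th2), and 4.53 and 5.04 (Th17) and *Hars2* at 17.9 and 17.3 FPKM (naïve), 9.03 and 7.56 (Th1), 7.84 and 6.35 (Th2), and 9.42 and 9.19 (Th17), both lower in every subset. The difference between the cytosolic and mitochondrial lists was not tested.

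Of the other ATF4 and stress response genes 21 of 25 were tested, of which 12, 13 and 12 were higher (57.1%, 61.9% and 57.1%) and 3, 5 and 3 lower (14.3%, 23.8% and 14.3%), with 5 lower in Th1 after quantile normalization. *Stc2*, encoding stanniocalcin 2, was at 0.110 and 0.166 FPKM (naïve), 21.4 and 24.0 (Th1), 41.2 and 43.6 (Th2), and 16.6 and 20.3 (Th17), with 4 and 6 implied fragments in naïve cells. *Atf3*, a stress-induced bZIP factor, was at 0.123 and 0.0495 FPKM (naïve), 13.4 and 10.6 (Th1), 14.9 and 15.1 (Th2), and 22.4 and 26.4 (Th17). *Eif4ebp1*, the translation repressor 4E-BP1, had 6.13 and 5.96 FPKM (naïve), 79.4 and 77.7 (Th1), 124 and 118 (Th2), and 112 and 111 (Th17). The Th2 libraries were the highest for *Stc2*, the Th17 libraries for *Atf3* and the Th1 libraries the lowest of the subsets for *Eif4ebp1*. *Vldlr*, a lipoprotein receptor, had at most 1 implied fragment in a naïve library and 4.31 to 15.9 FPKM in the effector libraries.

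Of the other folate and methionine cycle genes 20 of 23 were tested, of which 6, 6 and 9 were higher (30%, 30% and 45%) and 7, 7 and 4 lower (35%, 35% and 20%). The median was -0.13, -0.19 and 0.29, and the last turned to -0.081 with quantile normalization, where 8 were higher and 7 lower in Th17. *Ahcy*, which clears S-adenosylhomocysteine, was at 13.3 and 15.1 FPKM (naïve), 137 and 164 (Th1), 73.6 and 70.7 (Th2), and 46.0 and 57.7 (Th17). *Tyms*, encoding thymidylate synthase, was at 0.552 and 0.611 FPKM (naïve), 7.55 and 8.46 (Th1), 3.52 and 2.54 (Th2), and 6.37 and 7.56 (Th17). *Sfxn1*, a mitochondrial serine carrier, was at 12.8 and 11.5 FPKM (naïve), 38.8 and 41.7 (Th1), 31.9 and 32.6 (Th2), and 37.2 and 38.2 (Th17). These 3 genes were higher in every subset and highest in the Th1 mean.

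Of 29 further amino acid transporters 16 were tested, of which 5, 8 and 7 were higher (31.2%, 50% and 43.8%) and 6, 5 and 5 lower (37.5%, 31.2% and 31.2%). The median was -0.10, 0.33 and 0.24. With quantile normalization that of Th2 was 0.002 and that of Th17 turned to -0.023, where 3 were higher and 7 lower. The mitochondrial aspartate-glutamate carrier *Slc25a13* was at 0.539 and 0.557 FPKM (naïve), 3.06 and 2.48 (Th1), 3.93 and 4.07 (Th2), and 5.64 and 4.79 (Th17). The lysosomal transporters *Slc36a1* and *Slc38a9* were lower in every subset, at 13.2 and 14.8 FPKM (naïve), 4.17 and 5.08 (Th1), 4.17 and 3.18 (Th2), and 3.22 and 4.18 (Th17) and at 5.99 and 6.22 FPKM (naïve), 2.50 and 2.43 (Th1), 2.14 and 2.42 (Th2), and 2.64 and 2.42 (Th17). *Slc38a3* (SNAT3), a glutamine transporter, was listed at 0 in both naïve libraries and at 0.402 to 2.58 FPKM in effector libraries.

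Of the 11 tested genes of glutamine, aspartate and arginine metabolism 5, 5 and 6 were higher (45.5%, 45.5% and 54.5%) and 3, 4 and 3 lower (27.3%, 36.4% and 27.3%). *Gls2*, a glutaminase, had 1 implied fragment in each naïve library and 4.65 to 22.0 FPKM in effector libraries, the Th2 libraries being the highest. *Bcat1*, the cytosolic branched-chain aminotransferase, was at 0.0343 and 0.0460 FPKM (naïve), 3.38 and 4.03 (Th1), 5.05 and 5.55 (Th2), and 4.46 and 4.83 (Th17). *Got2*, the mitochondrial partner of Got1, was at 26.6 and 25.6 FPKM (naïve), 63.9 and 74.0 (Th1), 45.5 and 45.9 (Th2), and 71.2 and 84.7 (Th17). It was higher in all 3 subsets and, unlike *Got1*, lowest of the subsets in Th2 (0.58 ± 0.12, adjusted p = 0.00794 and 0.75 ± 0.12, adjusted p = 0.00305 in Th1 and Th17 against Th2). *Glul*, glutamine synthetase, was at 29.1 and 28.7 FPKM (naïve), 19.9 and 21.4 (Th1), 7.38 and 6.95 (Th2), and 19.6 and 21.0 (Th17), lower in all 3 subsets and furthest in Th2. Of 8 tested genes of polyamine metabolism 5, 2 and 5 were higher (62.5%, 25% and 62.5%) and 1, 2 and 0 lower. *Smox*, spermine oxidase, had 4.32 and 4.11 FPKM (naïve), 155 and 165 (Th1), 66.5 and 65.6 (Th2), and 288 and 329 (Th17), and *Oaz2*, an antizyme that inhibits ornithine decarboxylase, 9.93 and 7.79 FPKM (naïve), 14.8 and 13.9 (Th1), 13.7 and 10.8 (Th2), and 15.4 and 14.0 (Th17). These 2 genes passed in all 3 subsets.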

How the data were processed

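RNA from naïve and effector Th1, Th2 and Th17 cells, 2 libraries each, was analysed from the values the authors deposited. Per the labels and the submitters' processing notes, the authors aligned reads to mm10 with Bowtie (0.12.8) and TopHat (1.3.2), and computed FPKM per gene with Cufflinks (2.0.2). The gene annotation is not given in the sources used here. The methods name a kit that does not keep strand and the labels a stranded kit, so genes overlapping on opposite strands could share reads. FPKM depends on the other genes of a library, and the deposited FPKM was tested without further scaling. Groups and replicate numbers came from the labels.

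Rows sharing a symbol were summed (23746 rows, 23284 genes). The 11198 genes averaging 1 FPKM or more across the 8 libraries were fitted on log2(FPKM + 1), with a pseudocount of 1, in limma (3.58.1, R 4.3.3; lmFit and eBayes with trend, all libraries in 1 fit). The 6 comparisons were two-sided, adjusted by Benjamini-Hochberg with a threshold of 0.05, and the procedure was tested on simulated data. Tables and figures used Python 3.11.15, pandas 2.3.3, numpy 2.4.6 and matplotlib 3.10.9. Depth is the fragment number implied by the deposited confidence intervals, which covers counting error only. With 2 libraries, an SD is a rough estimate. Replicate r across genes was 0.953 to 0.960.

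The replicate number was also fitted as a block. Libraries with the same number deviated together, with correlations of 0.138 to 0.294 over the 6 pairs of groups. The block is used as a check, since the labels do not say what a number stands for. Other settings tried were 0.1 as pseudocount, removal of the filter or its increase to 5 FPKM, median scaling, quantile normalization, only the 2 groups compared, no trend, the highest row per symbol, the block and each library left out. Added after seeing the data were a limit to genes with status OK in all libraries and a fit without the 3 effector libraries numbered 1.

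The members and lists were chosen with earlier results of these data known. Every member is named. Of each further list, at most the 4 genes with the largest mean difference from naïve among those past the threshold in all 3 subsets are named. A few listed genes are not reported here. *Tbx21*, *Gata3*, *Il17a* and the cell type markers serve as checks. Coordinates are those of the data (mm10), and promoters are from RefSeq (GRCm38.p6). Transcripts were compared by 50-base words to find shared sequence. Protein sequences were not used here.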

Additional observations from a re-analysis of the deposited data

Results flagged for a closer look

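The 23 members below differed between effector subsets by the test of that difference itself (limma, adjusted p under 0.05), which is why they are listed. They made up 63.9% of the 36 tested members, near the 59.9% of all genes tested that differed in this way. For each, the largest difference past the threshold in log2(FPKM + 1) is given. Between Th1 and Th2, it was 0.53 for *Slc7a5*, 0.77 for *Slc1a5*, 0.46 for *Slc7a11*, 1.01 for *Phgdh*, -0.54 for *Mthfd1l*, 0.69 for *Mthfd2*, -0.56 for *Asns*, -0.89 for *Ddit3*, 0.65 for *Sesn2*, 0.49 for *Gars*, -0.41 for *Sars*, 0.69 for *Wars*, 0.33 for *Nars* and -1.05 for *Got1*, as Th1 minus Th2. Between Th17 and Th2, it was -0.34 for *Slc3a2*, -0.58 for *Psat1*, 1.06 for *Shmt1*, 1.12 for *Mthfd1*, 0.58 for *Atf5*, -0.92 for *Trib3* and -1.52 for *Gpt2*, as Th17 minus Th2. Between Th1 and Th17, it was -0.67 for *Slc7a6* and 0.63 for *Slc38a2*, as Th1 minus Th17. Of the calls between subsets, 12 of 23 in Th1 against Th2, 8 of 13 in Th17 against Th2 and 2 of 7 in Th1 against Th17 passed with every library left out in turn. The part of the different cytokines, of other cells in the cultures and of the scaling in these differences was not tested. Groups of 2 libraries are too small for a test of single libraries that stand apart.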

How the results depend on the processing

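Over all settings except the omission of single libraries, 2215 of 2352 single-gene values stayed as they were in sign and call. Of the rest, 106 lost the call, 30 gained it and 1 reversed. The reversal was *Gpt2* in Th17 against naïve cells, at -0.335 with quantile normalization (0.63 as deposited). These settings include 2 kinds of fit with fewer libraries, that of only the 2 groups compared and that without the 3 effector libraries numbered 1. Some of the lost calls came from such fits. With median scaling, 2 members were lower in Th17 than in naïve cells (1 as deposited), and between Th1 and Th17, 8 were higher in Th1 (5 as deposited) and 1 lower (2 as deposited). With quantile normalization 3 members were lower in Th17 than in naïve cells. With the replicate block 2 were, and 4 were lower in Th1 than in Th17. The block gave the calls printed beside the genes concerned and changed no other call of a member. At a mean FPKM of at least 5, where fewer genes were tested, 1793 of all genes differed between Th1 and Th17 (2815 before). Without the 3 effector libraries numbered 1, chosen after seeing the data, the spread came from the naïve pair alone and each lone library was assumed to vary like it. Then 14 members were higher and 0 lower in Th1 than in naïve cells (4156 of all genes called), 12 higher in Th2 (4973) and 13 higher in Th17 (4342). In the same fit, 0 members were higher and 1 lower in Th1 against Th2 (682 of all genes), 0 and 1 in Th17 against Th2 (342), and 0 and 0 in Th1 against Th17 (308). The cause of these changes was not tested beyond the smaller number of samples or genes.

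With each library left out in turn, members higher numbered 16 to 26 in Th1, 17 to 23 in Th2 and 19 to 22 in Th17 against naïve cells, and members lower 1 to 1, 2 to 3 and 1 to 1. All genes called numbered 6507 to 7460, 7033 to 7689 and 6533 to 7425. In Th1 against Th2, 6 to 12 members were higher and 6 to 9 lower (3106 to 4936 of all genes), in Th17 against Th2, 3 to 6 and 5 to 7 (2738 to 4876), and in Th1 against Th17, 1 to 4 and 1 to 2 (1558 to 2759). The lowest counts of members higher came without Th1 library 2 (16 against naïve, 6 against Th2 and 1 against Th17), without Th17 library 2 (3 in Th17 against Th2) and without Th17 library 1 (1 in Th1 against Th17). Those of Th2 and Th17 against naïve cells (17 and 19) came without naïve library 1. Without Th1 library 1 and without Th2 library 2, 6 members were lower in Th1 than in Th2. Over the 1728 single-gene values of these fits 121 lost the call, 8 gained it and 0 reversed. Depth limits *Asns*, *Chac1*, *Gpt2* and *Slc1a4* in naïve cells, where 1 to 16 fragments were implied. A difference that did not pass does not show that groups were alike.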

Other observations

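Library 2 of a group was above library 1 for 26 of the 36 tested members among naïve libraries, 27 for Th1, 16 for Th2 and 33 for Th17, against 50.8%, 60.5%, 46.7% and 62.5% of all genes tested. The median of the differences (library 2 minus library 1, log2) over the members was 0.049, 0.11, -0.033 and 0.14. For 12 further cytosolic synthetases and scaffold proteins, library 2 was above library 1 for 7, 9, 7 and 9 genes in the same order.

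*Lars2*, the mitochondrial leucyl-tRNA synthetase, varied more between replicates than any named synthetase, at 112.6 and 91.4 FPKM (naïve), 51.8 and 32.9 (Th1), 75.1 and 19.5 (Th2), and 24.4 and 37.4 (Th17). It was chosen for mention after its values were seen.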
